A study of Mus musculus with 2 samples.

Results

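Immature granule-stage neutrophils were examined in the 2 scRNA-Seq libraries of the mouse temporomandibular joint (TMJ), 1 from joints injected with PBS and 1 from joints injected with complete Freund's adjuvant (CFA), an oil emulsion with killed mycobacteria that models TMJ osteoarthritis (TMJOA) with pain. They were selected on measured values. A cell needed at least 500 genes, at most 10% mitochondrial UMIs and at most 1% of its UMIs from the hemoglobin genes *Hba-a1*, *Hba-a2*, *Hbb-bs* and *Hbb-bt*. It further needed at least 1% of UMIs from *Ngp*, *Camp* and *Ltf* together (its granule share), at least 2% from *S100a8* and *S100a9* together (its alarmin share), and under 2 UMIs of the endothelial genes *Pecam1* and *Cdh5*. A UMI is a tag that marks 1 captured RNA molecule. These limits were met by 180 of the 6681 cells inside the quality limits, 41 of 2667 in PBS and 139 of 4014 in CFA.

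Both libraries came from C57BL/6 WT mice labelled 8 to 10 weeks old, females by the study's methods, and the joints were taken 3 weeks after injection. The whole joint was dissociated, the joints of each condition were pooled, and cells with the leukocyte antigen CD45 were depleted with magnetic beads before capture. Neutrophils carry CD45, so the depletion acted on the cells described here, and their share of a library cannot be read as their share of the joint. With 1 library per condition there was no replicate, the condition and the library cannot be told apart, and no difference between PBS and CFA could be tested. Intervals are 95% intervals that cover counting error, not variation between mice. Those of summed levels and their ratios do not cover variation between cells either. A fold rule of size stands in for a test throughout and is not one. Before the quality limits the libraries held 7671 PBS and 5709 CFA cells. Without the hemoglobin limit, 5845 PBS and 4353 CFA cells would have passed. The members held 499188 UMIs in PBS and 2288798 in CFA, so CFA levels carry the smaller counting error. No barcode was shared between the PBS and CFA members, and 10 were shared between the whole libraries.

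Neutrophils are made in the bone marrow in a fixed order, and each stage fills its own kind of granule. Promyelocytes pack myeloperoxidase and serine proteases into azurophil granules, myelocytes and metamyelocytes pack lactoferrin, cathelicidin and lipocalin into specific granules, and later band cells make gelatinase granules. Division stops at about the myelocyte to metamyelocyte step, so RNA for specific granule proteins marks cells that are still in, or just past, the proliferating pool. The transcription factor C/EBPε, from *Cebpe*, drives the specific granule genes. Mature neutrophils carry little granule RNA and are rich in RNA for receptors, cytokines and chemokines.

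The 3 genes that define the granule share lie together on chromosome 9 of GRCm38. *Camp*, which encodes the cathelicidin peptide, lies at chr9:109847379-109849617 on the minus strand, *Ngp*, neutrophilic granule protein, at chr9:110419747-110423012 on the plus strand, and *Ltf*, lactoferrin, at chr9:111019271-111042767 on the plus strand. The 2 label markers outside the rule lie elsewhere, *Lcn2* (lipocalin 2, which binds bacterial siderophores) at chr2:32384633-32388252 and *Chil3* (a chitinase-like lectin) at chr3:106147554-106167564, both on the minus strand. Promoters of 4 of these genes are shown because they had the 4 highest ratios between the members and other neutrophils. The lines give RefSeq bases (GRCm38.p6) on the gene's strand, 5′ to 3′, up to the more upstream of the RefSeq and GENCODE starts, with matches to the C/EBP-type motif TTGCNNAA or its reverse complement TTNNGCAA in capitals.
Ngp: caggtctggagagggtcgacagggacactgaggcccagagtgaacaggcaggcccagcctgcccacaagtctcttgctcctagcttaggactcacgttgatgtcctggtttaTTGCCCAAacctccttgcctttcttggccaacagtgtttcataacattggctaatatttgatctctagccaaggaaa
Camp: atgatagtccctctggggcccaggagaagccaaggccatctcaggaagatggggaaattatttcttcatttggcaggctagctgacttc
Ltf: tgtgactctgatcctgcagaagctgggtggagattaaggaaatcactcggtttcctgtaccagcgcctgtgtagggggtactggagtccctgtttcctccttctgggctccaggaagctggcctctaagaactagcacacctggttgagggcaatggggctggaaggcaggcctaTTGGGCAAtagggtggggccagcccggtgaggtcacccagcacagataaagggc
Chil3: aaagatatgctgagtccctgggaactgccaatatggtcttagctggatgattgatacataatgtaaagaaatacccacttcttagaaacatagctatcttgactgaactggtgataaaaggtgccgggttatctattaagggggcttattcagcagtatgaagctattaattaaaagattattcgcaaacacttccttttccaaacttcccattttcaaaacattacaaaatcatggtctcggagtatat
They span chr9:110419558-110419746 (plus), chr9:109849618-109849706 (minus), chr9:111019042-111019270 (plus) and chr3:106167565-106167814 (minus). *Ngp* held TTGCCCAA and *Ltf* held TTGGGCAA, and no match was found in the *Camp* or *Chil3* lines. Over the full 250 bases before the RefSeq start, the motif was found for *Ngp*, *Ltf* and *Lcn2* and, as background, in 9.56% of 32851 promoter windows of that length. The *Lcn2* window overlaps its GENCODE gene and is not printed. A match describes letters and is not a measured binding site.

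The members made up 1.54% (1.1 to 2.08) of PBS cells and 3.46% (2.92 to 4.08) of CFA cells, a CFA to PBS ratio of 2.25 (1.6 to 3.18). Neutrophils under the granule limit, which met every other limit, made up 0.412% of PBS cells (11 cells) and 3.29% of CFA cells (132 cells), a ratio of 7.97 (4.32 to 14.7). These cells had a median alarmin share of 19.4% in PBS and 7.25% in CFA, where 84 of 132 lay under 10%. In CFA 70 of the 132 held at least 2 UMIs of macrophage markers, and how many are neutrophils was not tested. Of both classes together, called neutrophils here, 78.9% (65.3 to 88.9) were members in PBS and 51.3% (45.2 to 57.4) in CFA. The direction of the comparison thus depended on what the members were counted against. The size also depended on the hemoglobin limit, which removed 101 PBS and 2 CFA barcodes that met every other limit. With these barcodes the share was 2.43% of PBS and 3.24% of CFA cells, a ratio of 1.33 (1.06 to 1.68). The 101 PBS barcodes had a median of 2015 UMIs, 19% of them hemoglobin, and a median granule share of 1.82%, and whether they are neutrophils was not tested.

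**Figure D1:**
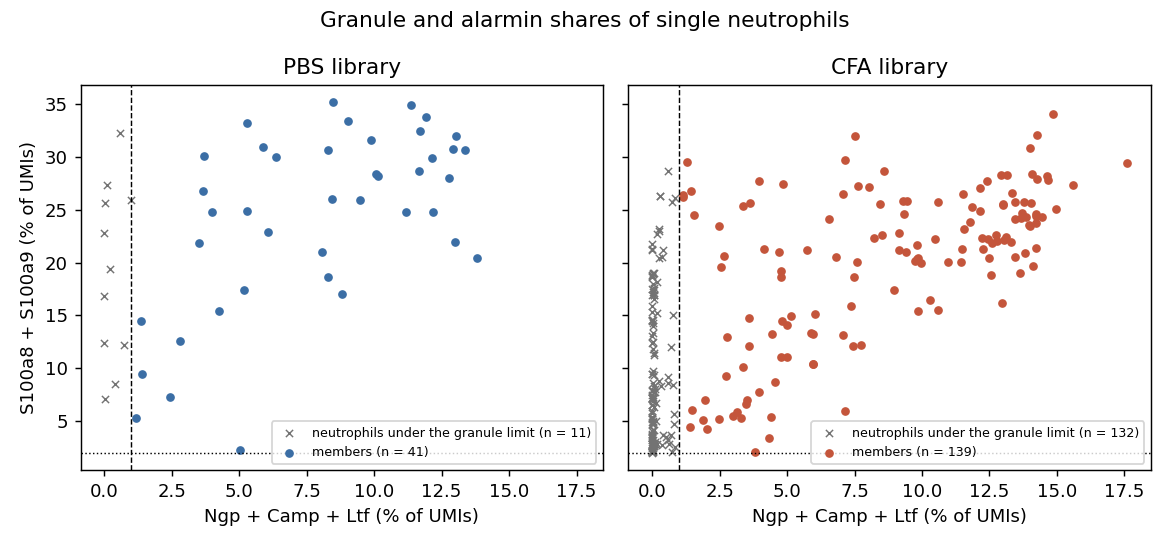
Each point is 1 neutrophil, placed by the percent of its UMIs from *Ngp*, *Camp* and *Ltf* (horizontal) and from *S100a8* and *S100a9* (vertical), for PBS (left) and CFA (right). Filled circles are the members, crosses the neutrophils under the granule limit, and the dashed and dotted lines the limits of 1% and 2%. Most CFA crosses lie near 0 on the horizontal axis, and the members reach 13.8% in PBS and 17.6% in CFA.

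The members had a median of 9523 UMIs and 2407 genes per cell in PBS and 13427 UMIs and 2848 genes in CFA. Their UMIs ran from 694 to 35931 in PBS and from 791 to 70443 in CFA, and deeper cells weigh more in summed levels. The deepest CFA member had an alarmin share of 5.26%. Their granule share ran from 1.19% to 13.8% in PBS, with a median of 8.44%, and from 1.14% to 17.6% in CFA, with a median of 9.15%. At the limit, the nearest cells outside had 0.985% in PBS and 0.858% in CFA, and the nearest inside were those at 1.19% and 1.14%. The alarmin share had medians of 26% and 21.7%, and lay under 10% in 4 PBS and 18 CFA members. Here the nearest cells inside had 2.31% and 2.11%, the nearest outside 1.06% and 1.49%, and 3 PBS and 12 CFA cells met the granule limit but not the alarmin limit.

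The 5 label markers were all present. *Ngp* and *Camp*, which the rule used, were found in 41 of 41 PBS and 139 of 139 CFA members, and *Ltf* in 39 and 135. *Lcn2* and *Chil3*, which the rule did not use, were each found in 41 PBS and 138 CFA members. After thinning each cell to 1000 UMIs, which put cells of unequal depth on 1 footing and left out 1 PBS and 2 CFA members, 100% of PBS and 89.8% of CFA members still held *Chil3*. In endothelial cells, which should lack it, the thinned shares were 0.503% and 2.27%, at median depths of 6605 and 5212 UMIs. For *Lcn2* the shares were 90% and 96.4% of thinned members against 1.38% and 1.68% of endothelial cells. Among thinned neutrophils under the granule limit, *Lcn2* was held by 8 of 11 in PBS and 72 of 132 in CFA, and *Chil3* by 2 and 11. The presence of *Chil3* thus went with the label against both of these classes. That of *Lcn2* set members apart from endothelial cells more than from other neutrophils. Azurophil and later genes, given below, show members of more than 1 stage.

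Levels below are CPM, the UMIs of a gene summed over the members of a library scaled to a total of 1e+06 UMIs. The assay captures 3′ ends, so a CPM needs no correction for gene length. The specific granule genes were close between conditions. *Camp* stood at 42643 CPM in PBS and 42898 in CFA, a CFA to PBS ratio of 1.01 (0.991 to 1.02). *Ngp* stood at 27541 and 31297 (ratio 1.14), and *Ltf* at 6316 and 7407 (ratio 1.17). These 3 were used to choose the cells and are given as a description.

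Outside the rule, *Lcn2* stood at 10000 CPM in PBS and 11531 in CFA, and *Chil3* at 5922 and 6643. *Pglyrp1*, a peptidoglycan-binding bactericidal protein, was at 2160 and 2137, *Hp* (haptoglobin) at 1314 and 1333, and *Cd177*, a surface protein stored in these granules, at 741 and 758. Of the 12 specific granule genes tested, 0 were at least 2-fold higher in CFA and 1 was at least 2-fold lower. The median ratio was 1.07, the same as over all genes tested (1.07). The 12 include *Ngp*, *Camp* and *Ltf*, and *Lcn2* and *Chil3* followed the granule share across cells, as given below. The rule set a minimum of that share in both libraries, so the closeness of this list is a description. A gene met the fold rule when it had at least 20 UMIs over both libraries, a ratio past 2-fold and an interval that did not include 1. Over the 8276 genes tested, 6.71% were higher and 5.24% lower in CFA by this rule. The exception was *Itgb2l*, an integrin β2-like gene, at 166 CPM in PBS and 35.4 in CFA (ratio 0.213, 0.155 to 0.293). UMIs of *Itgb2l* were present in 29 PBS members of 41 and 58 CFA members of 139, so the lower level was spread over cells.

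The alarmins *S100a8* and *S100a9*, which form the calprotectin complex and were also part of the rule, were lower in CFA. *S100a8* stood at 114949 CPM in PBS and 80518 in CFA, and *S100a9* at 108809 and 92849. *Wfdc21*, a secreted protein of the WAP family, was at 4379 and 3418 CPM, and *Anxa1* (annexin A1, an anti-inflammatory protein of granules and cytosol) at 1703 and 2360.

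The early azurophil proteases and myeloperoxidase were carried by a minority of the members. UMIs of *Elane* (neutrophil elastase) were present in 10 PBS members of 41 and 26 CFA members of 139, *Prtn3* (proteinase 3) in 17 and 44, *Mpo* (myeloperoxidase) in 7 and 17, and *Ctsg* (cathepsin G) in 7 and 15. *Elane* stood at 2306 CPM in PBS and 1141 in CFA (ratio 0.495, 0.461 to 0.531), *Prtn3* at 1709 and 870 (0.509), and *Mpo* at 419 and 231 (0.551). The cell with most *Mpo* held 37.7% of its UMIs in CFA, so these sums turn on single cells. Other genes of the azurophil list were widespread, with *Serpinb1a*, an inhibitor of these proteases, in 37 PBS and 133 CFA members, *Srgn* (serglycin, the granule proteoglycan) in 36 and 134, and *Cd63* in 34 and 128. Of the 9 azurophil genes tested, 2 were lower and 1 was higher in CFA, with a median ratio of 0.787 beside 1.07 over all genes. The gene that was higher was *Ctsc*, cathepsin C, which activates the serine proteases, at 28.1 CPM in PBS and 262 in CFA (ratio 9.35, 5.53 to 17.2).

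Counted as cells, members with at least 2 UMIs of *Mpo*, *Elane*, *Prtn3* and *Ctsg* after thinning were 7 of 40 (17.5%, 7.34 to 32.8) in PBS and 15 of 137 (10.9%, 6.26 to 17.4) in CFA. The intervals overlap. This class and the 3 further classes of single members below were chosen after the values had been seen.

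Later genes were carried by more members. *Retnlg*, a resistin-like gene from the mature neutrophil list, was found in 30 PBS and 112 CFA members at 1494 and 2875 CPM (ratio 1.92, 1.78 to 2.08). From the gelatinase list, *Mmp8* (collagenase) was at 677 and 623 CPM, and *Mmp9* (gelatinase) at 411 and 432. Members with at least 2 thinned UMIs of *Retnlg*, *Mmp8* and *Mmp9* were 15 of 40 (37.5%, 22.7 to 54.2) in PBS and 61 of 137 (44.5%, 36 to 53.3) in CFA.

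These members with later genes overlapped little with the others. In PBS 0 of the 15 were among the 7 azurophil members, and 0 were among the 15 dividing members described below. In CFA 0 of the 61 were among the 15 azurophil members and 2 were among the 40 dividing members, which is 3.28% of the former and 5% of the latter. Azurophil and dividing members did overlap, with 5 cells in PBS (71.4% of azurophil, 33.3% of dividing) and 6 in CFA (40% and 15%). The remaining members, in none of the 3 classes, were 8 of 40 in PBS and 29 of 137 in CFA, with median granule shares of 11.5% and 12.2%. Thinning to 1000 UMIs leaves many true carriers uncounted, so an overlap of 0 is a statement about this depth.

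The members were also split by their granule share, a range and not a type. The ranges 1 to 3%, 3 to 10% and 10% and over held 5, 21 and 15 PBS members and 16, 64 and 59 CFA members. These ranges are cut from the same cells, so the following values are a description.

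As sums, *Elane* and *Mpo* were lowest where the granule share was highest. *Serpinb1a* of the same list was highest there, at 389, 797 and 1096 CPM over the 3 ranges in PBS and 417, 470 and 1022 in CFA. *Elane* stood at 3627, 3116 and 511 CPM in PBS and at 3745, 1087 and 509 in CFA. *Mpo* stood at 768, 590 and 0 CPM in PBS and at 687, 278 and 39 in CFA. These sums rest on few cells, with *Elane* in 1 of 5 PBS and 3 of 16 CFA members of the lowest range. Per cell the relation was weak. Spearman's rho of *Elane* with the granule share was -0.0795 in 40 thinned PBS members and -0.101 in 137 CFA members. Azurophil members had median granule shares of 8.44% in PBS and 9.73% in CFA, against 8.46% and 9.22% for the others. In the highest range, *Elane* was level between the libraries, with a CFA to PBS ratio of 0.997 (0.792 to 1.27). In the range of 3 to 10% it was lower in CFA, with a ratio of 0.349 (0.318 to 0.383).

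*Lcn2* and *Chil3* were higher where the share of the other granule genes was higher, in both libraries. *Lcn2* stood at 1332, 7960 and 17512 CPM in PBS and 4419, 7942 and 18604 in CFA, and *Chil3* at 1383, 5281 and 9298 in PBS and 1395, 4654 and 10918 in CFA. Across thinned members, Spearman's rho with the granule share was 0.655 (*Lcn2*) and 0.681 (*Chil3*) in 40 PBS cells, and 0.693 and 0.716 in 137 CFA cells. These cells share a library and the total that both measures divide by, and no p-value is given.

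Genes of the mature cell ran the opposite way in CFA. The list of mature neutrophil genes summed to 17388, 8506 and 3338 CPM over the ranges in CFA, and to 3299, 6478 and 2788 in PBS, where the lowest range held 5 cells. *Retnlg* alone stood at 10358, 2955 and 727 CPM in CFA and at 502, 2891 and 229 in PBS. In the lowest PBS range 20696 CPM came from fibroblast markers, against 343 in CFA, and its part in these values was not tested.

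**Figure D2:**
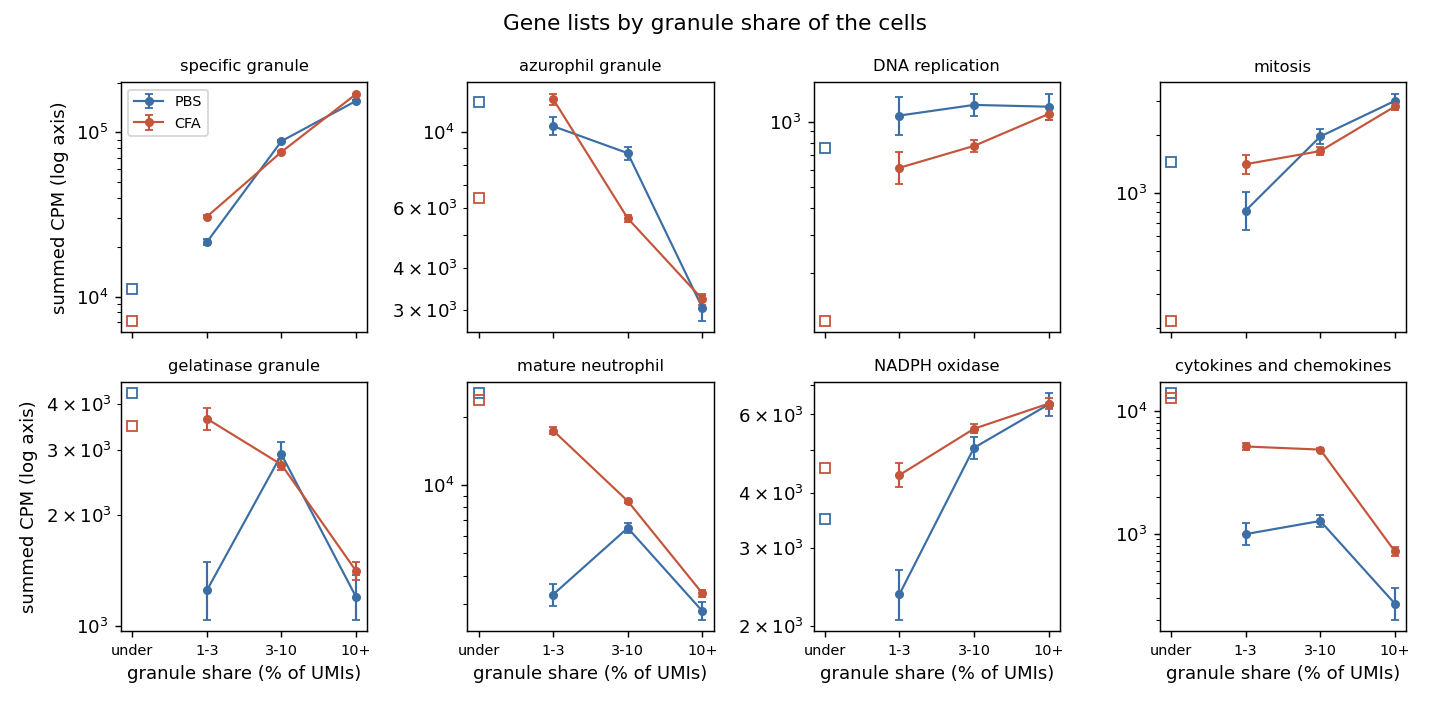
Summed CPM (log axis) of 8 gene lists in members with a granule share of 1 to 3%, 3 to 10% and 10% and over (filled circles, with 95% Poisson intervals) and in neutrophils under the granule limit (open squares), in PBS (blue) and CFA (red). The azurophil list is lowest and the mitosis list highest at 10% and over. There the 2 libraries lie within a ratio of 1.5 for all lists shown but cytokines and chemokines, which stand at 270 CPM in PBS and 718 in CFA.

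UMIs of *Cebpe* were present in 34 PBS members of 41 and 114 CFA members of 139, at 481 CPM in PBS and 333 in CFA (ratio 0.693, 0.599 to 0.805). In thinned cells it was found in 37.5% and 27% of members, against 0 of 11 PBS and 2.27% of 132 CFA neutrophils under the granule limit (0 of 11 allows a share of up to 27.3% of cells with a UMI by the 3-count limit, and the Clopper-Pearson interval runs to 28.5%) and 0.126% and 0% of endothelial cells. Its level was higher at a higher granule share, at 225, 484 and 620 CPM over the ranges in PBS and 161, 221 and 541 in CFA. *Gfi1*, a repressor needed for granulopoiesis, was near the floor, at 10 CPM in both libraries.

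Of the 16 transcription factors of granulopoiesis, 4 were higher and 1 was lower in CFA by the fold rule, with a median ratio of 1.21. *Cebpb*, which drives emergency granulopoiesis, stood at 268 CPM in PBS and 719 in CFA (ratio 2.68, 2.24 to 3.22), while *Spi1* (PU.1, a myeloid master factor) stood at 393 and 404 and *Cebpd* at 333 and 328. *Klf6* was at 148 and 313 CPM. *Klf4*, the factor that was lower (ratio 0.45), turned to a ratio of 3.27 without the members that held RNA of other cells, described further on.

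A large share of the members was dividing. Dividing cells were counted as those with at least 2 UMIs of a list of 20 mitosis genes, among them *Mki67*, *Top2a*, *Ube2c* and *Birc5*, after thinning to 1000 UMIs. They were 15 of 40 PBS members (37.5%, 22.7 to 54.2) and 40 of 137 CFA members (29.2%, 21.8 to 37.6). In the same way 1 of 11 PBS (9.09%, 0.23 to 41.3) and 3 of 132 CFA (2.27%, 0.471 to 6.5) neutrophils under the granule limit were counted. Endothelial cells gave 2.77% and 1.68%, which serves as the background. Without thinning, 53.7% of PBS and 52.5% of CFA members were counted. Of the 40 CFA members counted after thinning, 6 (15%) also held at least 2 UMIs of macrophage markers. Those 6 were 31.6% of the 19 CFA members with macrophage UMIs. In PBS 0 of the 15 did so.

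The CFA intervals of the members and the neutrophils under the limit do not overlap, and the PBS intervals do. The dividing share was highest in the range of 10% and over, with 8 of 15 PBS and 23 of 59 CFA members, against 5 of 20 and 16 of 63 in the range of 3 to 10%. The intervals of these ranges overlap in each library. Dividing members had a median granule share of 11.2% in PBS and 11.5% in CFA, against 6.36% and 8.04% for the others.

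**Figure D3:**
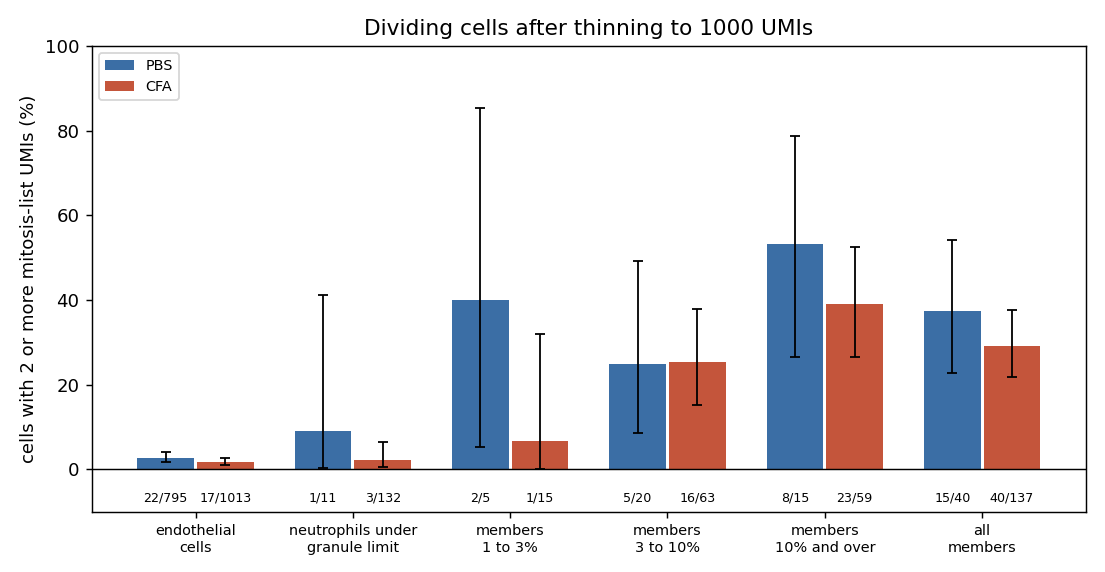
Percent of cells with at least 2 mitosis-list UMIs after thinning to 1000 UMIs, in PBS (blue) and CFA (red), with 95% Clopper-Pearson intervals and the number of cells under each bar. Members stand above endothelial cells in both libraries, with 37.5% in PBS and 29.2% in CFA.

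Mitosis genes were close between conditions, and genes of DNA replication were lower in CFA as a sum. *Mki67*, a marker of cycling cells, stood at 262 CPM in PBS and 291 in CFA (ratio 1.11, 0.918 to 1.35). *Top2a*, which untangles replicated DNA, stood at 319 and 296 (0.93, 0.781 to 1.11). Of the 20 mitosis genes 0 met the fold rule in either direction, with a median ratio of 1.02. The 17 tested genes of DNA replication also gave 0, with a median ratio of 0.828 and 5 of 17 ratios over 1. Their summed ratio was 0.751 (0.684 to 0.825), with 0.648 (0.565 to 0.744) in the range of 3 to 10% and 0.926 (0.795 to 1.08) at 10% and over. *Mcm5* (0.564), *Mcm7* (0.542), *Tyms* (0.563) and *Dut* (0.519), which copy DNA or supply its nucleotides, had intervals below 1.

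The respiratory burst oxidase was present in nearly every member. *Cybb*, its catalytic subunit, was found in 40 PBS and 138 CFA members at 1318 and 2005 CPM (ratio 1.52, 1.4 to 1.65), and its partner *Cyba* at 1675 and 1565. *Ncf1* and *Ncf4*, cytosolic subunits, stood at 411 and 345 CPM in PBS and 455 and 362 in CFA. None of the 6 genes met the fold rule, and *Cybb* stood at 656, 1162 and 1893 CPM over the ranges in PBS and 1238, 2040 and 2162 in CFA.

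Receptors that hold neutrophils in the marrow or release them were low. *Cxcr4*, the retention receptor for CXCL12, stood at 30.1 CPM in PBS and 64.2 in CFA (ratio 2.14, 1.25 to 3.92), and *Cxcr2*, the release receptor for CXC chemokines, at 90.2 and 92.6 (ratio 1.03, 0.742 to 1.45). Of the 10 tested receptors of this list 2 were higher and 0 lower in CFA, and 0 were higher without the members that held RNA of other cells. *Csf3r*, the receptor for the growth factor G-CSF, stood at 116 and 166 CPM.

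Several lists of inflammatory genes were higher in CFA members. Of 12 tested cytokines and chemokines, 6 were higher and 0 lower in CFA, with a median ratio of 2.89. *Il1b* (interleukin 1β) stood at 110 CPM in PBS and 846 in CFA (ratio 7.68, 5.87 to 10.2), found in 6 of 41 and 62 of 139 members. *Cxcl2*, a neutrophil attractant, stood at 256 and 1427 CPM (ratio 5.56, 4.66 to 6.69), and *Ccl4* at 64.1 and 334 (5.21).

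Pattern receptors were also higher in CFA. *Clec4d*, a lectin that binds mycobacterial glycolipid, stood at 34.1 CPM in PBS and 257 in CFA (ratio 7.56, 4.68 to 13.1), its partner *Clec4e* (Mincle) at 94.2 and 283, *Cd14* at 110 and 453, and *Tlr2* at 26 and 87 CPM. Of the 15 tested genes of this list 6 were higher and 0 lower, with a median ratio of 1.96, and *Fcer1g*, *Tyrobp* and *Clec12a* had ratios of 1.36, 1.12 and 1.05.

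MHC class I genes, which present peptides to CD8 T cells, were higher as a group. Of 8 tested genes 7 were at least 2-fold higher in CFA and 0 lower, with a median ratio of 3.03. *B2m* stood at 371 CPM in PBS and 856 in CFA (ratio 2.31, 1.98 to 2.7), *H2-D1* at 325 and 812 (2.5) and *H2-K1* at 236 and 780 (3.3, 2.74 to 4.01). In endothelial cells *B2m* stood at 638 CPM in PBS and 1488 in CFA, *H2-D1* at 675 and 1293, and *H2-K1* at 978 and 1971. In neutrophils under the granule limit they stood at 773 and 1650, 653 and 1666, and 653 and 1562.5. The higher level in CFA was thus not particular to the members. *H2-Q7* was found in 0 PBS and 56 CFA members, at least 12.3-fold higher with 3 UMIs over the PBS members as the floor. The class I genes are close copies of each other, so reads may be split between them and the single values are uncertain. Genes of the interferon-γ response gave 8 higher and 0 lower of 15 tested, among them *Gbp2* at 8.01 and 125 CPM. The type I interferon list gave 5 higher of 16, with a median ratio of 1.39 (2 of 16 and 1.1 without the members that held RNA of other cells), and *Ifitm3* of this list stood at 745 and 780 CPM.

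**Figure D4:**
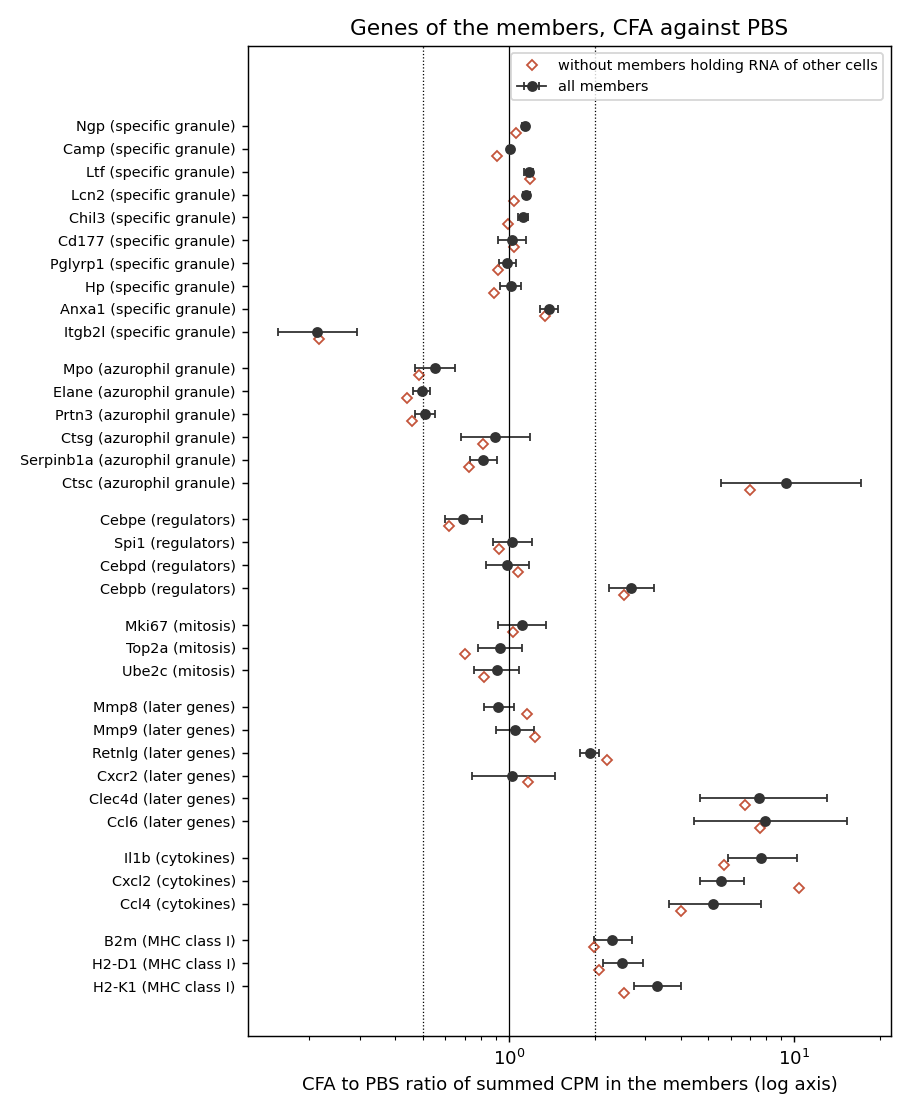
CFA to PBS ratio of summed CPM in the members (log axis) for 35 genes, grouped by list. Black circles are all members with 95% counting intervals, open diamonds the ratios without members holding RNA of other cells, and lines mark ratios of 0.5, 1 and 2. Specific granule and mitosis genes lie near 1 except *Itgb2l*, while *Il1b*, *Cxcl2*, *Clec4d*, *Ccl6* and *Ctsc* lie above 5.

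RNA of other cell types differed between the libraries along with these genes. Macrophage markers (8 genes, all 8 higher in CFA) summed to 409 CPM in PBS and 1818 in CFA members. They were at 0 in 36 of 41 PBS and 51 of 139 CFA members, and reached 621 UMIs in a single CFA member. Monocyte markers stood at 998 and 1445 CPM. Fibroblast markers ran the other way, at 8259 CPM in PBS and 569 in CFA, with 98.1% of the PBS UMIs in 3 cells, the highest with 2054 UMIs. Hemoglobin and other erythroid markers stood at 889 and 230 CPM, B-lineage markers at 349 and 190, and Schwann cell markers at 603 and 65.5. Endothelial markers stood at 26 and 14 CPM, with 13 and 32 UMIs in all, T and NK cell markers at 8.01 and 73, osteoblast and chondrocyte markers at 128 and 106, and those of basophils, mast cells and eosinophils at 2 and 1.75 CPM.

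The effect of these cells was measured by leaving out the 6 PBS and 11 CFA members in which 8 of these lists, all but the monocyte and erythroid ones, took at least 0.5% of UMIs. The genes lower in CFA went from 434 to 157 (2.16% of 7283 tested) and those higher from 555 to 581 (7.98%). *Il1b* kept a ratio of 5.67, *Cxcl2* of 10.4, *Clec4d* of 6.73 and *H2-K1* of 2.54, while *B2m* (1.98) passed under 2-fold. For MHC class I 5 of 8 genes stayed higher, and for the interferon-γ response 3 of 13. *Mpo* (0.484), *Prtn3* (0.456) and *Elane* (0.439) were then all lower by the fold rule, as were 5 DNA replication genes and 1 of mitosis, *Nusap1*. The macrophage list stayed higher, with a median ratio of 7.68 over 7 genes, so macrophage RNA remained after these members were left out, and its part in the CFA values was not tested.

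Within the range of 10% and over, where macrophage markers were at 0 UMIs in PBS and 67.3 CPM in CFA, some of the differences remained, some were within counting error and 1 list turned. *B2m* stood at 270 CPM in PBS and 553 in CFA (ratio 2.05, 1.52 to 2.83), *H2-D1* at 304 and 542 (1.78, 1.34 to 2.42) and *H2-K1* at 178 and 357 (2.01, 1.38 to 3.01). The summed MHC class I list had a ratio of 1.98 (1.66 to 2.38) there, against 3.07 (2.7 to 3.51) in the range of 3 to 10%. *Cxcl2* stood at 63.1 and 190 CPM (3.01, 1.64 to 6.16). *Il1b* rested on 1 PBS and 142 CFA UMIs, a ratio of 29.2 (5.17 to 1163), with the CFA UMIs in 11 of 59 members. Endothelial cells, used as background, also held more of both genes in CFA. In them *Cxcl2* was at 18.4 CPM in PBS and 162 in CFA, and *Il1b* at 11.4 and 113. *B2m*, *H2-D1* and *H2-K1* were also higher in CFA endothelial cells, as given above. The part of this background in the values at 10% and over was not tested. *Cebpb* had a ratio of 1.53 (1.11 to 2.15) there and of 4.09 in the range of 3 to 10%. *Clec4d*, at 11.5 and 29.5 CPM, had an interval that included 1. The Fc, lectin and Toll-like receptor list had a summed ratio of 1.04 (0.959 to 1.12) there, and the type I interferon list turned to 0.83 (0.711 to 0.973).

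**Figure D5:**
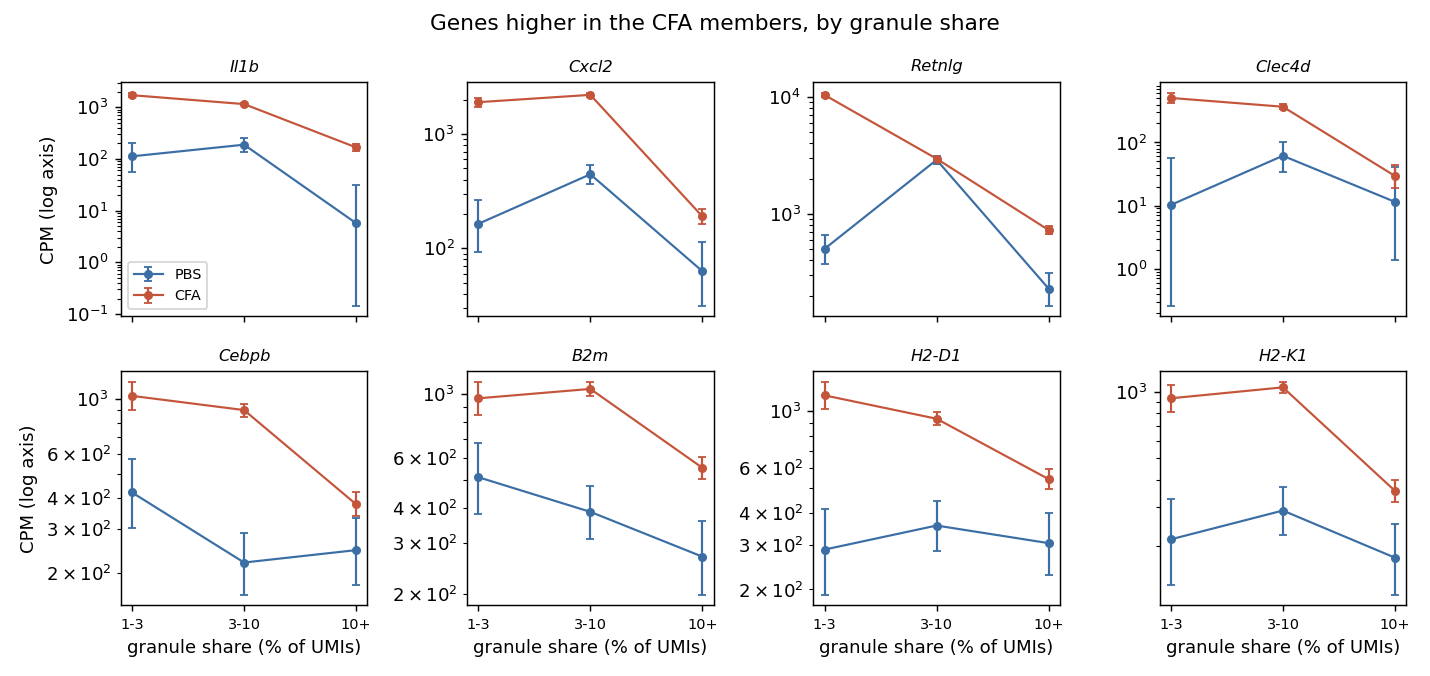
CPM (log axis) of 8 genes in members by granule share, 1 to 3%, 3 to 10% and 10% and over, in PBS (blue) and CFA (red), with 95% Poisson intervals. *Cebpb* and *H2-D1* lie farther apart at the 2 lower ranges than at 10% and over, where *B2m*, *H2-D1* and *H2-K1* are still higher in CFA, with ratios of 2.05, 1.78 and 2.01.

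Counted as cells, members with at least 2 thinned UMIs of *Il1b*, *Cxcl2*, *Ccl3* and *Ccl4* were 4 of 40 in PBS (10%, 2.79 to 23.7) and 36 of 137 in CFA (26.3%, 19.1 to 34.5). In CFA they were 10 of 15, 23 of 63 and 3 of 59 over the 3 ranges, and in PBS 1 of 5, 3 of 20 and 0 of 15. The PBS and CFA intervals overlap over all members and at 10% and over (0 to 21.8 in PBS, 1.06 to 14.2 in CFA). Of the 36, 24 were members with later genes (66.7%), 5 were dividing (13.9%) and 12 also held at least 2 UMIs of macrophage markers (33.3%). Those 12 were 63.2% of the 19 CFA members with macrophage UMIs.

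The genes with the most extreme ratios were named by a rule that took the 10 highest and 10 lowest among those at 100 CPM or more in a library. The highest were *Clec4n*, *H2-Eb1*, *H2-Aa*, *Mmp12*, *AW112010*, *Saa3*, *Cacna1d*, *H2-Ab1*, *Pla2g7* and *Cd74*. *H2-Aa*, *H2-Ab1*, *H2-Eb1* and *Cd74* belong to MHC class II presentation, and *Mmp12* is macrophage elastase. *Cd74* stood at 44.1 CPM in PBS and 870 in CFA, found in 3 and 47 members. *Clec4n* (Dectin-2, a fungal lectin receptor) had 1 PBS and 402 CFA UMIs, a ratio of 87.7 in 40 CFA cells, and 68.3% of the *Mmp12* UMIs came from a single cell. *Saa3*, an acute phase gene, turned to a ratio of 0.635 without members holding at least 2 UMIs of another cell type's list.

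Among the lowest were *Col14a1*, *Myoc*, *Clec3b*, *Mfap5*, *Mucl2*, *Obp1a*, *Sfrp4*, *Ogn* and *Igfbp6*. Most are genes of connective tissue, and 7 of these 9 were found in 5 or fewer PBS members. *Myoc* had all of its 122 PBS UMIs in a single cell. The exceptions were *Mucl2* and *Obp1a*, secretory genes of glands and nasal tissue, found in 27 and 19 of 41 PBS members at 140 and 104 CPM and in 0 of 139 CFA members. Their levels in other cell classes are not given here, and whether the members made this RNA was not tested. Without the members that held other cells' RNA, the lowest ratios included replication-dependent histones, *Hist1h2ap* at 717 and 131 CPM over all members (ratio 0.183), *Hist1h2ae* at 307 and 101, and *Hist1h2ab* at 102 and 39.8, beside *Itgb2l* and *Plekhg1*. Histone genes are near-identical copies that mostly lack poly-A tails, so their single values are uncertain.

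Against the neutrophils under the granule limit, the members were higher in specific granule genes and lower in mature neutrophil genes in both libraries. This contrast was made by the granule share, so it is a description of the 2 classes. Azurophil, mitosis and replication genes mostly did not pass the fold rule in both libraries. In CFA mitosis genes summed to 2049 CPM in the members against 218 under the limit, and replication genes to 871 against 121. In PBS these sums were 2095 against 1452 and 1160 against 759, and 1 cell under the limit held 104 mitosis-list UMIs. The azurophil list had a median ratio of 0.6965 in PBS and 23.65 in CFA. Its sums were lower in the members of both, at 7047 against 12228 CPM and 5408 against 6389. Macrophage markers summed to 306 CPM under the limit in PBS and 5547 in CFA, against 409 and 1818 in the members. Their part in the contrast was not tested. Of 3782 genes with at least 20 UMIs over both classes in each library, 4.1% were at least 2-fold higher in the members of both libraries and 7.32% were lower. The highest were *Ngp*, *Ltf*, *Camp*, *Chil3*, *Hist1h1b*, *Zmpste24*, *Cpne3*, *Hist1h2ae*, *Agpat2* and *Erg*. *Chil3* had a member to under-limit ratio of 9.26 (6.97 to 12.6) in PBS and 13.8 (12.7 to 15) in CFA, *Lcn2* of 3.2 and 7.4, *Anxa1* of 4.41 and 5.46, and *Cebpe* of 5.16 and 32.4. Of the 12 specific granule genes 8 were higher in both, while *Hp*, with ratios of 1.08 and 1.59, *Pglyrp1* and *Cd177* were not.

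Lower in the members were *Ccl6*, *Stfa2l1*, *Ankrd33b*, *Ifitm1*, *Sirpb1b*, *Ptgs2*, *Oasl2*, *Il1b*, *Acod1* and *Nlrp3*. *Il1b* stood at 110 CPM in PBS members against 3716 under the limit (ratio 0.0297), and at 846 against 4526 in CFA (0.187). *Retnlg* had ratios of 0.118 and 0.3, *Cxcr2* of 0.174 and 0.227 and *Csf3r* of 0.186 and 0.266. Of the 20 mature neutrophil genes 15 were lower in both libraries and 0 higher, and of 10 type I interferon genes 7 were lower. The oxidase (0 of 6), glycolysis and hypoxia (0 of 13) and the endoplasmic reticulum list (0 of 14) gave no gene past 2-fold in both.

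The PBS class under the limit held 11 cells, and 1 of them carried nearly all of its early genes. That cell held all of the *Mpo*, *Prtn3*, *Ctsg*, *Cebpe* and *Top2a* UMIs of the class and 99.7% of its *Elane* UMIs, beside 245 UMIs of B-lineage markers. Without cells holding other cells' RNA, *Mpo*, *Elane*, *Prtn3*, *Ctsg* and *Cebpe* were at 0 in the 8 PBS cells left and at 6.17, 40.7, 43.2, 3.7 and 9.87 CPM in the 106 CFA cells.

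A further class, cells with at least 1% of UMIs from the *Mpo* group of genes, held 7 PBS and 11 CFA cells. Whether it lies upstream of the members was not tested. No ratio was computed because at least 20 cells were required in each library. The class also held *Prg4* of the fibroblast list at 1265 CPM in PBS and 0 in CFA, and *Ly6c2* of the monocyte list at 1352 and 851. Side by side, *Mpo* stood there at 3134 and 4041 CPM and *Elane* at 5964 and 13423, while *Camp* stood at 9.66 and 8.11, *Ltf* at 0 and 4.05, and *Cebpe* at 43.5 and 191. *Mki67* stood at 179 and 178 CPM, below its 262 and 291 in the members. Other cell cycle genes went both ways. *Rrm2* was also lower there, at 135 and 93.2 CPM against 186 and 149 in the members. *Top2a* was higher there, at 362 and 361 CPM against 319 and 296, as was *Mcm3*, at 188 and 122 against 42.1 and 45.4.

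Of the remaining lists, glycolysis and hypoxia genes gave 0 of 15 past 2-fold, with *Gapdh* at 1232 and 1229 CPM. The endoplasmic reticulum list gave 1 higher and 0 lower of 16, with a median ratio of 0.914, and its sum stood at 3924, 2869 and 2008 CPM over the ranges in PBS and 3650, 2725 and 1787 in CFA. Of 10 tested stefins and other protease inhibitors 3 were higher and 1 lower, *Cstb* with a ratio of 4.14 and *Stfa1* with 0.413, the latter found in 3 PBS and 8 CFA members. Stefin A genes are near-identical copies, so these values are uncertain. Immediate early genes gave 3 higher and 2 lower of 13, and without the cells holding other RNA 7 higher and 0 lower of 12. The mature neutrophil list gave 6 higher and 0 lower of 20 (8 higher without those cells), with 19 of 20 ratios over 1 and a summed ratio of 1.64 (1.57 to 1.71), the gelatinase list 2 of 8 (*Arg2* and *Slc11a1*), and the progenitor list 2 higher and 1 lower of 9, *F13a1* and *Irf8* against *Cd34*, which was found in 2 PBS members.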

How the data were processed

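The 2 libraries, 1 PBS and 1 CFA, were droplet 3′ scRNA-Seq of pooled TMJ tissue after CD45+ depletion. The authors made the deposited counts, which are whole UMI counts per gene and cell, with Cell Ranger 7.0.1 on mm10 (GRCm38), per the submitters' processing notes. The kit version differs between the labels and the methods. Droplets with little RNA had been removed before deposit. No doublet caller was run, and mixed cells were handled by leaving them out as described. The members, the classes and the gene lists were chosen with earlier results of these data known.

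Counts were summed by gene symbol (38 of 32245 symbols had more than 1 identifier) over the cells of a class and divided by the class total to give CPM. Python 3.11.15, numpy 2.4.6, scipy 1.17.1, pandas 2.3.3 and matplotlib 3.10.9 were used. CPM had exact Poisson intervals, ratios of CPM exact conditional binomial intervals, shares Clopper-Pearson intervals and ratios of shares log-normal intervals, all at 95%. A count of 0 was set to a floor of 3 in lower bounds. The fold rule was tested on simulated data for the CFA to PBS comparison, where it found 97.6% of 166 genes changed 4-fold and called 1.53% of the unchanged genes among 8233. The simulated sums held Poisson error only, with no spread between cells. In the data single cells held much of the UMIs of some genes, so the 1.53% need not hold for them. Shares of cells were taken after thinning each cell to 1000 UMIs with a fixed seed. Endothelial cells with at least 5 UMIs of their markers served as background.

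Named genes were the label markers, the genes of the rule, the genes of 29 lists and the 10 highest and 10 lowest ratios at 100 CPM or more, with and without mixed cells. Of 324 listed genes, 321 were in the files. Alternatives were other limits, scalings, count minimums, thinning depths and the omission of mixed cells. Values of a few listed genes are not reported here.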

Additional observations from a re-analysis of the deposited data

Results flagged for a closer look

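The 10 genes below had member to under-limit ratios on opposite sides of 1 in the PBS and CFA libraries. The difference between the libraries was not tested, and the PBS class under the granule limit held 11 cells. *Elane* had a ratio of 0.601 in PBS and 42.4 in CFA, *Mpo* of 0.273 and 41.6, *Prtn3* of 0.792 and 28.9, and *Ctsg* of 0.257 and 36.7. For these 4 genes, 99.7% or 100% of the PBS UMIs under the limit were in a single cell, and without cells holding RNA of other types they were at 0 there. *Nkg7*, a granule membrane protein, had ratios of 0.451 and 34.4, and *Myb*, a progenitor transcription factor, of 0.322 and 16.2. The immediate early genes *Fosb* (2.6 and 0.286) and *Jun* (2.93 and 0.606) and the factor *Klf4* (3.11 and 0.287) were higher in the PBS members and lower in the CFA members. *Cd63*, a membrane protein of azurophil granules, had ratios of 1.91 and 0.794.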

How the results depend on the processing

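The share of members had a CFA to PBS ratio between 2.22 and 2.43 under other limits on mitochondrial UMIs, genes, granule share and alarmin share and without the members holding at least 0.5% of other cells' UMIs. Without the hemoglobin limit the PBS share was 2.43% and the ratio 1.33. Among neutrophils the shares were 78.9% and 51.3%, and the ratio turned to 0.651. Without members holding at least 2 UMIs of another list, the shares were 0.675% and 0.922%, a ratio of 1.37, and 155 genes were higher and 113 lower in CFA, with *Saa3* turning to 0.635. The count of genes lower in CFA moved most. It was 1019 without the hemoglobin limit, 927 with no count minimum, 265 at a granule share of at least 2%, 163 at a minimum of 50 UMIs and 206 in the range of 3 to 10%. In the range of 10% and over 171 genes were higher and 92 lower. Without members at 0.5% of other cells' UMIs, 157 were lower and *Igfbp6* turned to 1.85. The choice of these last 3 alternatives followed a look at the data. Fewer cells or genes entered several of them, and other causes were not tested. The dividing share in CFA was 41.6% at 2000 UMIs and 52.5% unthinned. The counts of genes that differed from neutrophils under the limit stayed within 1.5 times in the 3 alternatives run. Of 435 values of single genes 285 stayed within their counting interval, 148 moved without turning and 2 turned, those of *Saa3* and *Igfbp6* given above. These 2 are not all the genes that turned. *Klf4*, described earlier, also did so without members at 0.5% of other cells' UMIs. *Acta2* went there from 0.872, with an interval that included 1, to 41.2. No paired analysis was possible because each condition has 1 library and the values come from no test, and no replicate could be left out. Depth limits genes near 20 UMIs, where 1 cell can set a ratio.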
